A study of Mus musculus with 4 samples.

Results

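The genes described here encode receptors through which intestinal lymphocytes read dietary, microbial and endocrine signals, together with genes that these receptors switch on. They are the aryl hydrocarbon receptor *Ahr* and its targets *Ahrr*, *Cyp1a1* and *Tiparp*, the retinoid receptors *Rara* and *Rxra*, the vitamin D receptor *Vdr*, and the glucocorticoid receptor *Nr3c1* with its targets *Tsc22d3* and *Fkbp5*. They are given by symbol, a rule that uses no measured value although earlier results of these data were known, and all 10 were found among the 25239 genes of the table. Of these 10 genes, 9 reached at least 10 counts in at least 2 libraries, as did 11689 genes of the table, and *Cyp1a1* did not.
Their levels were measured by RNA-seq in 4 libraries of NKT cells, the T cells whose receptor binds lipids held by CD1d, which were sorted from the small intestinal lamina propria (SI-LP) of untreated wild-type C57BL/6Jax mice. The study used young adult mice of both sexes, injected with a nanobody against ARTC2 shortly before tissue harvest, and sorted live cells that bound TCR-β antibody and PBS-57-loaded CD1d tetramer and lacked B220, CD11b, CD11c and CD8. The sample titles mark replicates 3 and 4 as First and replicates 1 and 2 as Second. These words are read here as a first and a second experiment, although the titles do not say what they stand for. All 4 belong to this 1 untreated condition, and no treated cells or other tissue are analysed here, so the data give levels and their spread, and the labels do not say whether a library came from 1 mouse.

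These receptors are transcription factors that wait for a small lipophilic ligand. The aryl hydrocarbon receptor is a basic helix-loop-helix protein held in the cytoplasm by HSP90 and its co-chaperone p23 until a planar aromatic ligand from plants, microbes or pollutants releases it to pair with ARNT, and it is known for maintaining intraepithelial lymphocytes and innate lymphoid cells of the gut. The others are nuclear receptors, of which RARα and the vitamin D receptor pair with an RXR on DNA, while the glucocorticoid receptor is also kept by HSP90 and its co-chaperones. Retinoic acid made from dietary vitamin A is known for giving T cells their gut-homing receptors, vitamin D for controlling calcium uptake in enterocytes, and glucocorticoids for restraining T cell activation.

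The AHR-ARNT dimer binds DNA at the core letters GCGTG, and the upstream windows of the 3 AHR targets are shown to set these letters beside the levels of the 3 genes. Each window holds the 250 bases before the RefSeq start site on GRCm38.p6, written 5′ to 3′ along the gene, with GCGTG or its reverse complement CACGC in capitals.
*Cyp1a1* (chr9:57697363-57697612, plus strand): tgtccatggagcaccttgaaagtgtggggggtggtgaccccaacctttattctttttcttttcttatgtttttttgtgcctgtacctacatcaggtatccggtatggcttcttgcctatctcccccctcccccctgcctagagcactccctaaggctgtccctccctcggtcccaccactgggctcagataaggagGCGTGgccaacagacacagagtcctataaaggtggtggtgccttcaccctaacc
*Tiparp* (chr3:65528197-65528446, plus strand): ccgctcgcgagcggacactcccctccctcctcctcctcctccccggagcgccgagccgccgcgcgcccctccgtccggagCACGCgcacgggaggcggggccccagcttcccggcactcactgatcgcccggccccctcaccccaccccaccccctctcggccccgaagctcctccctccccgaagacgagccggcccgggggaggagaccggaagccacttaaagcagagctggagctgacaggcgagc
*Ahrr* (chr13:74292332-74292581, minus strand): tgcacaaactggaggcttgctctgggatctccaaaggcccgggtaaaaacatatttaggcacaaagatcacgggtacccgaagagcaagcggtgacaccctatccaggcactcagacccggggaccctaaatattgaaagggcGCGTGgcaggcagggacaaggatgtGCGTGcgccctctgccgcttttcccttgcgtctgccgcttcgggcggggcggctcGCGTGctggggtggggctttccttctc
The letters occurred 1 time before *Cyp1a1*, 1 time before *Tiparp* and 3 times before *Ahrr*, and the last base of the nearest match lay 50, 166 and 23 bases before the start. Of 32851 windows of this length in the same table, 28.2% held GCGTG on either strand. Matches of this kind are a description of the letters and not a measurement of binding. *Nr3c1* was not looked up. Of the other 9 genes, *Cyp1a1* included, 8 had an entry (14 windows), and *Ahr* had none. GCGTG occurred in 5 of these 14 windows. They include 1 match before *Vdr* and 1 in the first window of *Rara*, so the letters were not limited to the AHR targets.

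Total counts ran from 3882803 to 8732858 per library, and levels are given as CPM, counts scaled to a common depth with edgeR's TMM factors, or as TPM, which also divides by gene length and is the scale used wherever genes are compared. A count of 3, taken as the smallest level that can be told from 0, equals 0.287 to 0.753 CPM. The 7 T cell markers (*Cd3e* and 6 others) were above 0 in all 4 libraries and held 0.254%, 0.118%, 0.284% and 0.133% of all counts in replicates 1 to 4. The 23 epithelial markers (*Epcam* and 22 others) took 0.109%, 1.06%, 0.0238% and 3.07%, with 2 of the 23 at 0 in replicate 1, 1 in replicate 3 and 0 in replicates 2 and 4. Plasma cell markers took 0.627% and 0.782% in replicates 1 and 2 against 0.000547% and 0.0248% in replicates 3 and 4, while the markers of B cells, myeloid, stromal and mast cells took at most 0.0148% of any library. In bulk RNA, fewer cells of a type and less RNA per cell cannot be told apart.

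By mean TPM the order was *Nr3c1*, *Tiparp*, *Rara*, *Tsc22d3*, *Vdr*, *Ahr*, *Rxra*, *Ahrr*, *Fkbp5* and *Cyp1a1*. The mean TPM (± SD, n = 4) was 176 ± 89.8 for *Nr3c1*, 123 ± 61.3 for *Tiparp*, 82.1 ± 65.7 for *Rara*, 66.8 ± 33.8 for *Tsc22d3* and 62.0 ± 66.2 for *Vdr*. It was 33.3 ± 21.8 for *Ahr*, 22.8 ± 9.57 for *Rxra*, 8.63 ± 4.43 for *Ahrr* and 5.82 ± 2.91 for *Fkbp5*. Among neighbours in this order, *Nr3c1* exceeded *Tiparp* in 4 of 4 libraries, and *Fkbp5* exceeded *Cyp1a1* in 4 of 4. The other pairs of neighbours held in 2 or 3 of 4 libraries, so their order was not the same in every library. An exact paired permutation test over 4 libraries cannot go below p = 0.125, so no test of the order was made. Without replicates 2 and 4, the libraries with more epithelial marker counts in their experiment, *Vdr* moved from rank 5 to rank 9 with a mean of 4.84 TPM, and the other 9 genes kept their order among themselves.

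**Figure D1:**
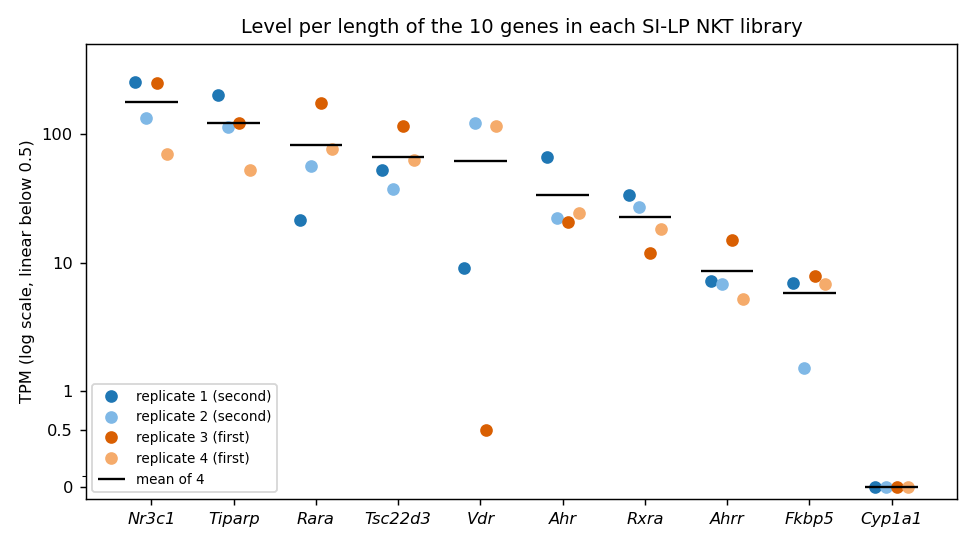
TPM of the 10 genes (y axis, log scale, linear below 0.5) in each library (points; blue for the second and orange for the first experiment), with the mean of 4 as a line and genes ordered by mean TPM. *Vdr* spans from 0.504 TPM in replicate 3 to 122 TPM in replicate 2, and *Cyp1a1* is at 0 in all 4 libraries.

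*Ahr* (chr12:35497979-35534989, GRCm38, minus strand, 11 merged exons), the ligand sensor, had 121, 39.9, 46.7 and 53.7 CPM in replicates 1 to 4, a mean of 65.2 ± 37.3 CPM (SD, n = 4). Replicate 1 was high and the other 3 libraries lay close together, so the experiments overlapped. Its log2 difference, the second experiment minus the first, was 0.68 (standard error 0.77, unadjusted p = 0.413, adjusted p = 1.0 by the quasi-likelihood F-test of edgeR with Benjamini-Hochberg adjustment over all genes tested), and the other edgeR values here are of the same test. Without replicate 1 the difference was -0.33.
*Tiparp* (chr3:65528447-65555518, plus strand, 6 exons), an AHR target encoding a mono-ADP-ribosyltransferase that restrains AHR, had 279, 154, 207 and 87.6 CPM (mean 182 ± 81.1, SD). It was higher than *Ahr*, *Ahrr* and *Cyp1a1* in every library, and its TPM exceeded that of *Ahr* by 2.16-fold to 5.87-fold. The experiments overlapped, and the same log2 difference was 0.55 with a standard error of 0.67 (edgeR, adjusted p = 1.0). Exons of *Tiparp* overlap those of *4931440P22Rik* on the other strand over 186 of 4154 bases, and since counting ignored strand its count is uncertain to that extent.
*Ahrr* (chr13:74211118-74292331, minus strand), which encodes the repressor that competes with AHR for ARNT, had 11.5, 10.6, 29.2 and 10.04 CPM (mean 15.4 ± 9.28, SD). Replicate 3 was high and the other 3 were nearly equal. Its TPM was below that of *Ahr* in 4 of 4 libraries, at 0.110 to 0.724 of it. Between experiments the log2 difference was -0.83 with a standard error of 1.21 (edgeR, adjusted p = 1.0), and it was 0.14 without replicate 3.
*Cyp1a1* (chr9:57687928-57703824, plus strand), the monooxygenase that clears AHR ligands and the target most often used to read AHR activity, had 0 counts in each of the 4 libraries. Its level was therefore under 0.287 to 0.753 CPM, depending on the library, which covers counting error alone.

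Of the other AHR genes, all 5 partners and chaperones that passed the filter, of 6 listed, had at least 10 counts in each library, with *Hsp90ab1* at 2124 ± 369 TPM (SD, n = 4), *Hsp90aa1* at 507 ± 170 TPM and *Ptges3*, which encodes p23, at 199.5 ± 36.0 TPM. *Arnt*, the DNA-binding partner, had 70.9 ± 26.6 TPM. Of 7 further AHR target genes 3 passed. *Nfe2l2*, a regulator of the antioxidant response, had 189.6 ± 62.2 TPM and was above 10 counts in all 4 libraries. *Nqo1*, a quinone reductase, had 0, 475, 0 and 14 counts in replicates 1 to 4, and *Il22*, a cytokine that acts on the epithelium, had 33, 34, 0 and 0. Each of these passed the filter through 2 libraries alone, so nothing is read from which libraries those were. *Cyp1a2* and *Aldh3a1* had 0 counts throughout, *Cyp1b1* at most 6 and *Ugt1a6a* at most 21.

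*Rara* (chr11:98937696-98974942, plus strand), which encodes the retinoic acid receptor α, had 31.2, 79.0, 308 and 133 CPM in replicates 1 to 4 (mean 138 ± 121, SD, n = 4). Both libraries of the first experiment were above both of the second, with no overlap. The second minus the first experiment gave a log2 difference of -2.0 (standard error 0.75, unadjusted p = 0.0337, adjusted p = 1.0 by edgeR). Without replicate 3 the mean was 81.2 CPM and the log2 difference -1.28. The unadjusted p was under 0.05 for 2.12% of the 11689 genes tested, and for 1 of the 9 genes described here. The highest library exceeded the lowest by 9.89-fold, and by 8.39-fold when counts were divided by the T cell marker counts of the same library.
*Rxra* (chr2:27677201-27763319, plus strand), the partner of RARα and of the vitamin D receptor, had 61.2, 48.5, 26.6 and 40.6 CPM (mean 44.2 ± 14.5). In CPM it varied least of the 9 genes, with a coefficient of variation of 32.8% against a median of 63.5% over all genes tested. Both libraries of the second experiment were above both of the first, with a log2 fold change of 0.71 (standard error 0.75, adjusted p = 1.0 by edgeR). Per 1000 T cell marker counts *Rxra* had 24.1, 48.9, 7.65 and 31.3 counts, and on that scale the experiments overlapped.
*Rara* exceeded *Rxra* per length in 3 of 4 libraries, with a TPM ratio from 0.641 in replicate 1 to 14.6 in replicate 3.

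Of the other retinoid receptors, *Rxrb* had 23.5 ± 15.7 TPM (SD, n = 4), a level within the spread of *Rxra*, while *Rarb* and *Rarg* had 1.58 ± 1.81 and 1.3 ± 1.02 TPM and *Rxrg* had 0 counts. Of 11 genes that make, bind or break down retinoids, 3 passed the filter and 6 had at most 3 counts in every library. *Dhrs3*, a retinal reductase, had 24.0 ± 14.7 TPM, *Rdh10*, a retinol dehydrogenase, 17.97 ± 22.5 TPM, and *Aldh1a1*, a retinal dehydrogenase, 15.5 ± 15.3 TPM with 189, 41, 5 and 152 counts in replicates 1 to 4. *Cyp26a1*, a retinoic acid hydroxylase that is a common readout of retinoid signalling, had 0 counts in all 4 libraries. The gut-homing receptors that retinoic acid is known to induce were present in each library. *Ccr9*, the receptor for the intestinal chemokine CCL25, had 383 ± 245 TPM at percentile 97 of all genes tested. The integrin chains *Itgb7* and *Itga4* had 75.6 ± 16.4 and 24.5 ± 17.9 TPM.

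*Vdr* (chr15:97854427-97908296, minus strand, 10 exons), the receptor for active vitamin D, had 96, 1808, 4 and 813 counts in replicates 1 to 4, which equal 13.3, 173, 0.893 and 204 CPM. Replicates 2 and 4 were high and replicates 1 and 3 low, so each experiment held 1 high and 1 low library. The mean of 97.8 ± 106 CPM (SD, n = 4) describes none of the 4 libraries. The exact 95% Poisson interval of the 4 counts in replicate 3 was 1.09 to 10.2 counts. On the log2 scale *Vdr* was higher by 7.41 in replicate 4 than 3 and by 3.67 in replicate 2 than 1.
Epithelial markers moved with it. The libraries ranked 3, 1, 2, 4 from low to high by the epithelial share of counts and ranked the same by the CPM of *Vdr*. The order of replicates 2 and 4 is not firm. *Lyz1* held 84299 of the 119050 epithelial counts of replicate 4, and without it 34751 were left, beside 89019 in replicate 2. In TPM, *Vdr* had 122 in replicate 2 and 116 in replicate 4. By each of these measures replicates 2 and 4 lay above replicates 1 and 3. A difference of over 1 log2 unit in this direction within both experiments was seen for 19 of the 23 epithelial markers, of which 2 had under 10 counts in both replicates 1 and 3 and so passed the filter through the other libraries alone. It held for 19.0% of the 11689 genes tested and for 1 of the 9 genes described here, *Vdr*. Per 1000 epithelial marker counts *Vdr* had 12.2, 19.5, 3.06 and 6.83 counts in replicates 1 to 4, and 16.8, 20.3, 3.17 and 23.4 with the Paneth cell gene *Lyz1*, which took most epithelial counts of replicate 4, left out. The part of epithelial RNA in the *Vdr* counts was not tested.
Between experiments *Vdr* differed in log2 by -0.13, second minus first (standard error 1.90, adjusted p = 1.0 by edgeR). This value rests on single libraries. It was 0.76 without replicate 1, -2.94 without replicate 2, -1.13 without replicate 3 and 6.68 without replicate 4, and only the last passed (adjusted p = 0.0343 by edgeR, 2 libraries against 1, the lone library being assumed to vary like the others).

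Of 5 genes of vitamin D metabolism and response, 2 passed the filter. *S100g*, the calcium-binding protein calbindin-D9k of enterocytes, had 1, 75, 28 and 27 counts in replicates 1 to 4. *Cyp2r1*, a vitamin D 25-hydroxylase, had 1, 15, 2 and 41 counts and passed the filter through replicates 2 and 4 alone. *Cyp27b1*, which makes the active hormone, had 91 counts in replicate 2 and at most 1 in the others. *Cyp24a1*, the hydroxylase that inactivates vitamin D and is its most used target gene, had 0 counts in all 4 libraries, and *Trpv6*, an epithelial calcium channel, at most 2.

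**Figure D2:**
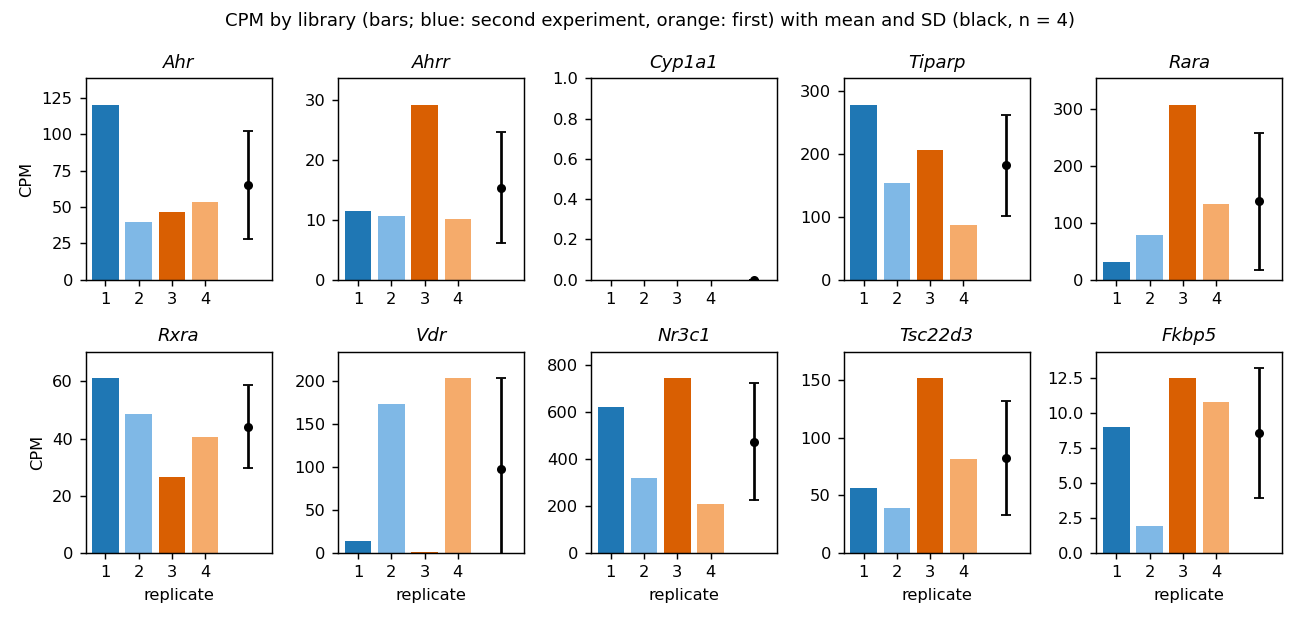
CPM of each gene (y axis, linear, own scale per panel) in replicates 1 to 4 (bars; blue for the second, orange for the first experiment) with the mean and SD of the 4 (black, n = 4; the lower bar of *Vdr* passes below 0 and is cut there). *Vdr* is high in replicates 2 and 4, *Rara* and *Tsc22d3* are highest in replicate 3, and *Cyp1a1* has no counts.

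*Nr3c1* (chr18:39410545-39519421, minus strand), which encodes the glucocorticoid receptor, had 621, 320.4, 744 and 209 CPM in replicates 1 to 4 (mean 474 ± 251, SD, n = 4). Replicates 1 and 3 were high and replicates 2 and 4 low, and the experiments overlapped. The log2 difference, second minus first, was -0.017 (standard error 0.79, adjusted p = 1.0 by edgeR), and its sign turned under other scalings. Its log2 difference was -1.83 for replicate 4 minus 3 and -0.95 for replicate 2 minus 1, where the medians of the 7 T cell markers were -1.47 and -1.03. Per 1000 T cell marker counts *Nr3c1* had 244, 323, 214 and 161 counts, so that its highest library exceeded its lowest by 2.01-fold on this scale and by 3.57-fold in CPM. On this scale replicate 4 was still below 3, but replicate 2 was above 1.
*Tsc22d3* (chrX:140539529-140600522, minus strand), which encodes the glucocorticoid-induced leucine zipper protein GILZ, had 56.5, 39.4, 152 and 81.8 CPM (mean 82.4 ± 49.6). Both libraries of the first experiment were above both of the second, with a log2 fold change of -1.29 (standard error 0.67, unadjusted p = 0.0977, adjusted p = 1.0 by edgeR).
*Fkbp5* (chr17:28398753-28486149, minus strand), a co-chaperone that lowers the affinity of the receptor for its hormone, had 9.01, 1.91, 12.5 and 10.8 CPM (mean 8.55 ± 4.65). Replicate 2 was low with 20 counts, and both libraries of the first experiment were above both of the second (log2 fold change -1.09, standard error 1.55, adjusted p = 1.0 by edgeR).
Both targets lay below their receptor per length in every library, at 0.207 to 0.891 of the TPM of *Nr3c1* for *Tsc22d3* and 0.0114 to 0.0983 for *Fkbp5*.

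All 11 further glucocorticoid target genes passed the filter, and 0 were called between experiments. The highest were *Dusp1*, a MAP kinase phosphatase, with 866 ± 353 TPM (SD, n = 4), *Il7r*, the IL-7 receptor, with 325 ± 212 TPM, and *Per1*, a clock gene, with 157 ± 93.6 TPM. Within the experiments, 4 of the 11 (*Per1*, *Zbtb16*, *Cxcr4* and *Il7r*) had lower values by more than 1 log2 unit in replicate 4 than in 3 and likewise in 2 than in 1, beside 8.08% of all genes tested. Another 3 (*Sgk1*, *Mt1* and *Mt2*) had higher values by more than 1, beside 19.0% of all genes, and *Mt2* passed the filter through replicates 2 and 4 alone. These 7 were named after their values were seen. The lower direction depends on the scaling, since with T cell marker counts 1 of the 4, *Cxcr4*, was still lower by more than 1 in both, beside 1.1% of all genes. Among 7 genes for corticosteroid handling, the HSP90 co-chaperones *Fkbp4* and *Stip1* had 247 ± 61.2 and 144 ± 76.7 TPM. *Hsd11b1*, which regenerates active corticosterone, had 26.7 ± 19.8 TPM, the mineralocorticoid receptor *Nr3c2* 16.1 ± 10.5 TPM, and the steroid synthesis genes *Cyp11a1* and *Cyp11b1* 0 counts. *Zbtb16* also encodes PLZF, the factor that defines the NKT lineage, so it is a gene of NKT cells themselves as well. Its level differs between NKT subsets. The paper classed most SI-LP NKT cells as NKT1, a subset it gated as low in PLZF, and found *Zbtb16* lower in SI-LP than in lymphoid NKT cells.

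**Figure D3:**
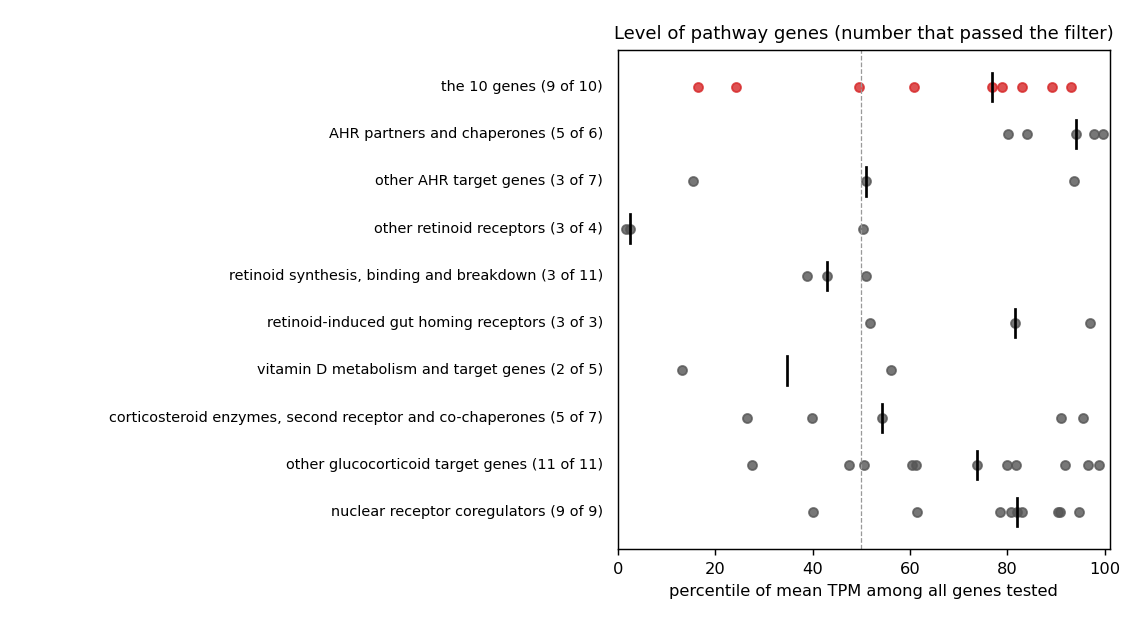
Percentile of mean TPM among the 11689 genes tested (x axis) for the genes of each list that passed the filter (points; the label gives how many of how many), with the list median as a bar. The lists of AHR partners and coregulators lie mostly on the right, while the retinoid enzymes and vitamin D genes that passed lie near or below percentile 50.

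In the plot of percentiles, the 9 genes that passed had a median of 76.8. The median of all genes tested is 50 by construction, and 6 of the 9 lay above it. The value of 76.8 is the percentile of *Vdr*, which is also 1 of the 6 and whose mean describes none of the 4 libraries. Without replicates 2 and 4 the median of the 9 was 69.4. The median was 94.1 for the AHR partners and chaperones, 81.9 for 9 coregulators, 73.8 for the glucocorticoid targets, 43 for the retinoid enzymes and 2.43 for the other retinoid receptors. The value of 2.43 rests on 3 genes and is the percentile of *Rarb*. In replicates 1 to 4 *Rarb* had 3, 0, 14 and 24 counts and *Rarg* 5, 15, 17 and 3, so each passed the filter through 2 libraries alone. The coregulators, which connect these receptors to the transcription machinery, had at least 10 counts in every library for 9 of 9 genes, led by the corepressor *Nrip1* at 221 ± 102 TPM, the acetyltransferase *Crebbp* at 141 ± 25.1 TPM and the corepressor *Ncor1* at 136 ± 46.7 TPM.

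Within the nuclear receptor family, of which 36 of 49 genes passed the filter, *Nr3c1* ranked 4 by mean TPM, *Rara* 6, *Vdr* 9 and *Rxra* 17. The orphan receptors *Nr4a1* and *Nr4a3*, which antigen receptor signals induce, led with 869.6 ± 300.1 and 519 ± 299.8 TPM (SD, n = 4), followed by *Rora* with 192 ± 149 TPM. *Hnf4a*, an epithelial regulator, ranked 5 with 91.6 ± 91.9 TPM. Over single libraries the rank of *Nr3c1* ran from 3 to 6, that of *Rara* from 5 to 15, that of *Vdr* from 4 to 27 and that of *Rxra* from 9 to 21. *Vdr* and *Hnf4a* were both higher in replicate 4 than in 3 and in replicate 2 than in 1, *Hnf4a* with log2 differences of 5.04 and 3.12 and with 220, 2788, 41 and 1240 counts in replicates 1 to 4. The number of family members with this direction is not read here, because 9 of the 36 had under 10 counts in replicates 1 and 3 and passed the filter through the other libraries alone.

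**Figure D4:**
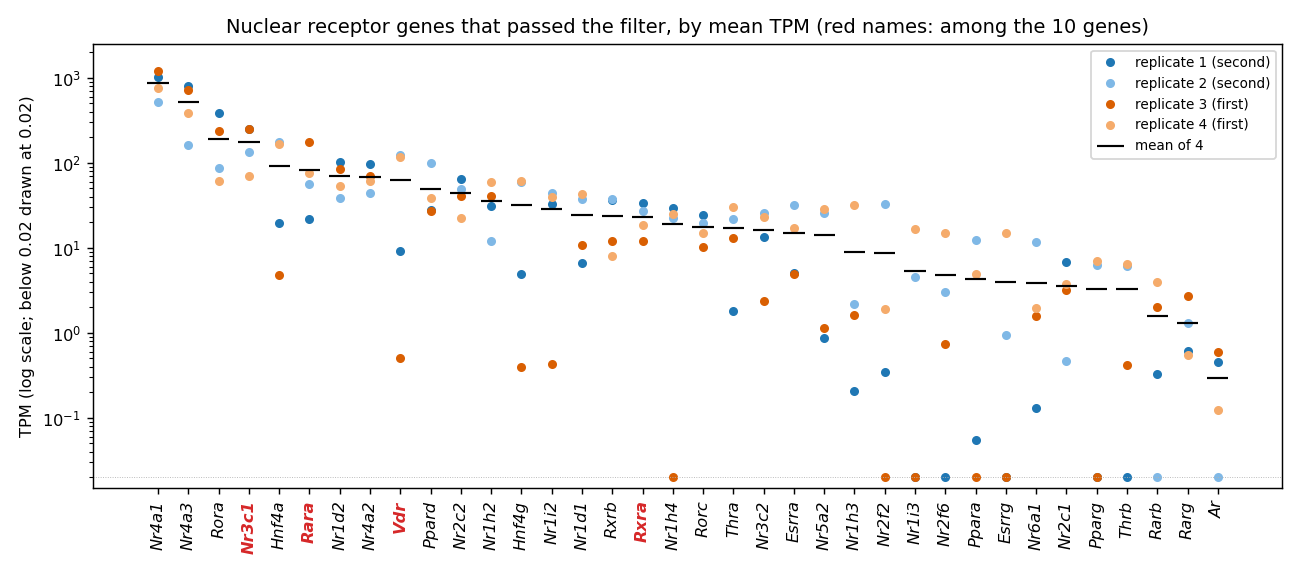
TPM (y axis, log scale, values below 0.02 drawn at 0.02) of the 36 nuclear receptor genes that passed the filter in each library (points, blue for the second and orange for the first experiment), with the mean of 4 as a line. *Nr3c1* and *Rara* lie among the 6 highest, and *Vdr* and *Hnf4a* are lowest in replicates 1 and 3.

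Between the experiments edgeR called 0 of 11689 genes (0.0%) at an adjusted p under 0.05, although 248 had an unadjusted p under 0.05, and DESeq2 called 41. None of the 9 genes was called by edgeR or DESeq2 over all 4 libraries. The libraries of the experiments did not overlap for 4 of the 9. Of these, *Rara*, *Tsc22d3* and *Fkbp5* were lower in the second experiment, a pattern held by 14.4% of all genes tested, and *Rxra* was higher, as were 14.7% of all genes.
Within the experiments, *Ahrr*, *Tiparp*, *Nr3c1*, *Tsc22d3* and *Fkbp5* were lower in replicate 4 than 3 and in replicate 2 than 1, as were 29.9% of all genes tested, and 1 gene, *Vdr*, was higher in both, as were 35.2%. No gene of the 9 was lower by over 1 log2 unit in both, which held for 8.08% of all genes. T cell markers were lower in the same libraries, 4 of 7 by over 1 log2 unit in both. Scaled to the counts on the T cell markers, the median difference of all genes tested was 1.46 log2 units in each experiment, where it was 0.08 and 0.13 with TMM factors. On that scale 0 of the 5 genes were lower in both experiments, against 4.29% of all genes. *Tiparp* then had differences of 0.18 and 0.50 and *Tsc22d3* of 0.52 and 0.83, while *Nr3c1* had differences of -0.42 and 0.41, *Ahrr* of -0.12 and 1.22 and *Fkbp5* of 1.17 and -0.82. With library size alone 3 of the 5, *Tiparp*, *Nr3c1* and *Tsc22d3*, were lower in both. The sign of the differences of these 5 genes therefore depends on the scaling, while *Vdr* was higher under each, by 8.55 and 5.02 on the T cell scale. Their place relative to other genes did not change. With TMM, median-of-ratios, library size and T cell scaling, all 5 lay below the median of all genes tested in both experiments. They were named for lying below 0 with TMM factors, where that median was above 0, so this is not a separate result.

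**Figure D5:**
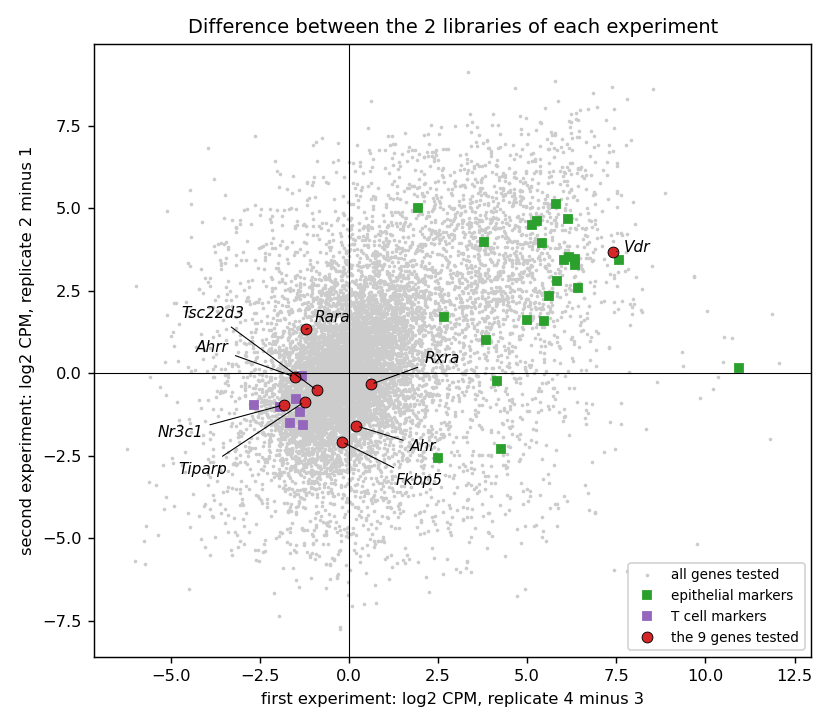
Difference in log2 CPM between the libraries of the first experiment (x axis, replicate 4 minus 3) and of the second (y axis, replicate 2 minus 1) for all genes tested (grey), epithelial markers (green), T cell markers (purple) and the 9 genes (red). *Vdr*, at 7.41 and 3.67, lies among the epithelial markers, and 5 genes lie below 0 on both axes, which changes with the scaling.

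The genes whose pattern over the 4 libraries was most like each receptor were found by the root mean square difference of log2 CPM centred on each gene's mean, with smaller values meaning more alike. For *Ahr* they were *Nrf1* (0.065) and *Otud7b* (0.066), with 61 genes under 0.2, and for *Rxra* *Lpp* (0.023) and *Rrp8* (0.031), with 103 genes. For *Nr3c1* they were *Cysltr2* (0.051) and *Rnf146* (0.052), with 76 genes. For *Rara*, *Plcb4* (0.12) and *Gm13375* (0.13) were nearest, with 8 genes under 0.2, and for *Vdr* *Reep6* and *Aqp4* (both 0.16), with 3 genes. *Rara* and *Vdr* ranged more widely over the libraries than the other receptors, 9.89-fold and 228-fold, so the fixed cut of 0.2 is harder to meet. *Plcb4* had 0.416 CPM in replicate 1, which equals the floor of that library. *Reep6* and *Aqp4* had 0 counts in replicate 3. Over 4 libraries and 11689 genes such closeness arises easily, and no test was made of it.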

How the data were processed

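Raw counts per gene were deposited by the authors, who per the file headers counted paired reads on the exons of RefSeq genes (mm10) with featureCounts 1.6.4, primary alignments only and without a strand option, after alignment. The aligner is uncertain, since the methods name HISAT2 whereas the submitters' processing notes list Bowtie2 and RSEM. The methods name GRCm39, whereas the submitters' processing notes name GRCm38.p6, and all 10 genes lie on their RefSeq GRCm38 positions, so GRCm38 is used. The deposited gene length, which is not a measurement, was used for TPM. Of 6 library columns, 2 matched no sample label and were not used.
Lymphoid NKT libraries were not analysed here. Genes reaching 10 counts in 2 or more libraries entered the comparison of experiments by edgeR's quasi-likelihood test on TMM-scaled counts and Benjamini-Hochberg adjustment over all of them, and standard errors were derived from the F statistic. With 1 condition, this p sets the difference between the experiments against the spread of libraries within them, and both may be technical. A large p does not show that the libraries varied little. Log2 differences between single libraries used a prior count of 2. The test was checked on simulated counts. No 2 libraries held the same counts. Intervals and floors cover counting error only.
The genes and lists were chosen with earlier results of these data known. The named genes are the 10 genes, the 3 highest of each pathway list by mean TPM, the 5 highest nuclear receptors and the 2 most similar patterns per receptor, and other names were added after their values were seen. Upstream sequences are from RefSeq. Alternatives were DESeq2, library size alone or without *Rn45s*, median-of-ratios factors, scaling to T cell markers, other filters and prior counts, CPM ranks, and leaving out replicates. The omission of replicates 2 and 4 together was chosen after seeing the data. Models ran in R 4.3.3 with edgeR 4.0.16 and DESeq2 1.42.0. Other values came from Python 3.11.15 (scipy 1.17.1, pandas 2.3.3, numpy 2.4.6), and plots from matplotlib 3.10.9.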

Additional observations from a re-analysis of the deposited data

Results flagged for a closer look

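*Ahr* and *Ahrr* each had 1 library far from the other 3. For *Ahr*, replicate 1 had 121 CPM against 39.9 to 53.7 CPM, and the gap to the nearest library was 0.8293 of the range, just past the limit for 4 samples. For *Ahrr*, replicate 3 had 29.2 CPM against 10.04 to 11.5 CPM, and the gap was 0.9238 of the range. The high libraries of the receptor and of its target belong to different experiments. Per 1000 T cell marker counts, *Ahr* had 47.4, 40.3, 13.4 and 41.4 counts in replicates 1 to 4 and *Ahrr* 4.52, 10.7, 8.42 and 7.73, so that on this scale replicate 3 was lowest for *Ahr* and replicate 2 highest for *Ahrr*. These are 2 of 16 sets of values checked, and chance alone flags about 1 set in 20, or 0.8 here.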

How the results depend on the processing

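Between experiments, 0 genes were called under TMM, median-of-ratios factors, library size alone, scaling to T cell markers and the filter on all 4 libraries, while DESeq2 called 41, edgeR without a filter 58, and fits without 1 replicate 0 to 81 (10 without replicate 3, 81 without replicate 4). The cause was not tested. Of the 9 genes, *Vdr* alone was called, in the fit without replicate 4. *Rara* lost its unadjusted p under 0.05 with library size alone, with scaling to T cell markers and without replicate 1 or 3.
The direction of small differences between experiments turned. With library size alone and scaling to T cell markers, *Vdr* went from -0.13 to 0.0699 and 0.19 and *Nr3c1* from -0.017 to 0.29 and 0.60, and *Nr3c1* was 0.0136 with median-of-ratios factors and with DESeq2. With 1 replicate left out, *Ahr* ran from -0.33 to 1.26, *Ahrr* from -1.40 to 0.14, *Nr3c1* from -0.66 to 1.18 and *Vdr* from -2.94 to 6.68, whereas the other 5 kept their direction with changed sizes. *Tiparp* ran from 0.063 (without replicate 1 or 4) to 1.31 (without 3), *Rara* from -2.82 to -1.28, *Rxra* from 0.43 to 1.05, *Tsc22d3* from -1.66 to -0.77 and *Fkbp5* from -2.59 (without 1) to -0.37 (without 2).
The median percentile of 76.8, which is that of *Vdr*, became 58.7 against the genes that reached 10 counts in each library. That set leaves out low genes and *Vdr*. The median percentile was 67.5 to 81.4 with 1 replicate left out and 69.4 without replicates 2 and 4. With CPM in place of TPM 2 genes changed rank, with 1 replicate left out 0 to 4, and without replicates 2 and 4 there were 5. Scaled to T cell markers, 2 genes and not 1 were higher by over 1 log2 unit within both experiments, *Rxra* joining *Vdr*, as were 44.3% of all genes (19.0% with TMM), since this scaling moves the median of all genes to 1.46, and *Tiparp* and *Rara* turned to 0.18 and 0.21 for replicate 4 minus 3. Mean levels moved by less than their SD, which is large. That of *Rara* was 81.2 and not 138 CPM without replicate 3, and that of *Vdr* 62.4 and not 97.8 CPM without replicate 4. No paired analysis was possible because the libraries share a single condition. *Cyp1a1*, with 0 counts, and *Vdr* in replicate 3, with 4, lie at or near the floor, so their levels there are imprecise. Replicate 3 was not the shallowest library, with 5487147 total counts against 3882803 in replicate 4, where *Vdr* had 813 counts.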
